A study of Mus musculus with 2 samples.

Results

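The genes described here are 42 DNA replication genes, chosen by name from the machinery that copies the genome and the enzymes that supply it, out of 32285 genes in the count matrix. All 42 were found in it. They were followed in CD8+ T cells, the killer lymphocytes of the immune system, taken from the spleens of wild-type (WT) mice whose age, sex and strain the labels do not give. Cells were cultured for 30 h either rested, without a stimulus, or on 1 of 5 amounts of peptide-MHC (pMHC), the ligand of the T cell receptor, which carried the peptide called M9C at 20, 2 or 0.2 pmol or the peptide called L6F at 80 or 20 pmol. Each of the 6 cultures was stained with its own hashtag, a barcoded antibody that marks where a cell came from, and live cells were sorted with propidium iodide, a sort that is blind to CD8. All cultures were then pooled into a single 10x Genomics lane. Each condition was 1 culture, so no test between conditions is possible. The 95% intervals below cover counting error only.

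After filtering, 755 rested cells and 1589 to 2477 cells per stimulated condition remained, 10600 in all. Rested cells were shallow, with a median of 1056 unique molecular identifiers (UMIs, counts of single captured RNA molecules), against 6050 to 7114 in stimulated cells. The minimum of 500 genes removed 828 rested barcodes (52.3%) and 0.322 to 0.873% of the stimulated ones. Levels are therefore given mainly as CPM, UMIs of a gene after every condition is scaled to the same total, which compare a gene between conditions, not genes with each other. All 5 of 5 CD8 T cell markers were detected, at a joint level of 3518 CPM in rested and 1810 to 1955 CPM in stimulated cells, and Cd4 had no UMI in rested cells. Gamma-delta T cell markers (3 genes) were at 419 CPM in rested and 56.3 to 104 CPM in stimulated cells, and NK cell markers (5 genes, with Ncr1 and Klra8 at 0 in rested cells) at 72.9 and 17.0 to 50.7 CPM; their part in the levels below was not tested.

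Before DNA can be copied, origins are licensed: Cdc6 and Cdt1 load the ring of Mcm2 to Mcm7 onto DNA as an inactive helicase. Cdc45 and the GINS complex (Gins1 to Gins4), helped by Mcm10, switch the helicase on, and polymerases, the sliding clamp and its loader then build the new strands. A naive T cell rests outside the cell cycle, and a T cell receptor signal is known to bring it into the cycle within days. Transcription factors of the E2F family are known to drive many of these genes when a cell leaves G1.

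Promoter windows from RefSeq (GRCm38.p6, 250 bases before to 50 bases after the annotated start, 300 in all) were matched for 34 of the 42 members. They were searched on both strands for the words TTTCCCGC, TTTCGCGC, TTTGGCGC and TTTGCCGC, which are common forms of the E2F site, and neighbouring words may overlap. Of the 34 members, 15 (44.1%) held at least 1 word, against 5.29% of 6214 other measured genes and 2.60% of all 27025 genes in the table. The word CCAAT, counted the same way, stood in 67.6% of members, 43.0% of the other measured genes and 41.1% of all genes. These matches describe letters, not bound sites. The 15 were Cdc6, Cdt1, Clspn, Dnmt1, Dtl, Gins3, Lig1, Mcm3, Mcm5, Mcm6, Mcm7, Pola1, Pold1, Rfc3 and Uhrf1.

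The 200 bases before the start are printed for 5 members, each on the gene's own strand from 5′ to 3′ with E2F words in capitals, to let members with and without a word be read side by side. They were picked after their values were seen: Mcm5, Mcm6 and Uhrf1 hold words, while Mcm10 and Rrm2 are members with large ratios and no word in their windows. The Mcm5 stretch is chr8:75109309-75109508 on the plus strand, Mcm6 is chr1:128359706-128359905 on the minus strand, Uhrf1 is chr17:56304113-56304312 on the plus strand, Mcm10 is chr2:5012792-5012991 on the minus strand and Rrm2 is chr12:24708054-24708253 on the plus strand.
Mcm5: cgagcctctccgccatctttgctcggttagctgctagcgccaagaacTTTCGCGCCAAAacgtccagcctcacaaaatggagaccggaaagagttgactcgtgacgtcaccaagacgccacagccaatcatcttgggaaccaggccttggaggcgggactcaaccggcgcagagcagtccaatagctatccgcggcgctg
Mcm6: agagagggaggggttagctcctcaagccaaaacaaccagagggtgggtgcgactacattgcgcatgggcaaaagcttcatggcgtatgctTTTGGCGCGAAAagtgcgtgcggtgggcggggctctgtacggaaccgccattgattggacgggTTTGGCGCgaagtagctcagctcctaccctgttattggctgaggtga
Uhrf1: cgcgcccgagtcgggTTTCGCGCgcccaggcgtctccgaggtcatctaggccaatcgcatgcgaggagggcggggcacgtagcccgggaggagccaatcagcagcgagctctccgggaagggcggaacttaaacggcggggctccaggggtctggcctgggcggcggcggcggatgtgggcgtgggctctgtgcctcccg
Mcm10: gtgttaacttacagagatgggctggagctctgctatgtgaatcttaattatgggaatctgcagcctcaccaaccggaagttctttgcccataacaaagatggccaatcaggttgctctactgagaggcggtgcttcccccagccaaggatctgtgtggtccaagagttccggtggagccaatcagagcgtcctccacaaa
Rrm2: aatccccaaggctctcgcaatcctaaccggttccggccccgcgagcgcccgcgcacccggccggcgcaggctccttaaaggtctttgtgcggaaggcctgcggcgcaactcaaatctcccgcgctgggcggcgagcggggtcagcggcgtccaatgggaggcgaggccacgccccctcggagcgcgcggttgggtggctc
In Mcm5 a pair of words overlap, and they begin 153 and 149 bases before the start. In Mcm6 an overlapping pair begins 110 and 106 bases before the start and a further word begins 47 bases before it. The Uhrf1 word begins 185 bases before the start.

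Replication genes were higher in every stimulated condition than in rested cells. Summed over the 42 members, the level was 2021 CPM in rested cells (95% interval 1930.0 to 2115) and 6291, 6132 and 6227 CPM at 20, 2 and 0.2 pmol M9C and 6574 and 6496 CPM at 80 and 20 pmol L6F. The 5 stimulated sums lie close together and far from the rested one. The ratio to rested cells was 3.11 (2.97 to 3.26) at 20 pmol M9C, 3.03 (2.90 to 3.18) at 2 pmol M9C, 3.08 (2.94 to 3.23) at 0.2 pmol M9C, 3.25 (3.11 to 3.41) at 80 pmol L6F and 3.21 (3.07 to 3.37) at 20 pmol L6F. Counted per cell without that scaling, members gave 2.46 UMIs in a rested cell and 41.1 to 44.6 in a stimulated cell, a ratio of 16.7 to 18.1, because a stimulated cell also yielded more UMIs in all.

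A member was counted as higher where its CPM ratio was at least 2-fold, its interval excluded 1 and it reached 10 CPM in either condition. All 42 members were measured, and at 20 pmol M9C 37 were higher and 0 lower, against 16.9% higher and 16.0% lower among all 7779 genes measured. At 2 pmol M9C 35 members were higher (all genes 16.7% higher, 16.4% lower), and at 0.2 pmol M9C 36 (16.5% and 16.3%). At 80 pmol L6F 38 members were higher (13.5% and 13.3%) and at 20 pmol L6F 39 (14.3% and 14.0%). In none of the 5 comparisons was a member lower, and every member's ratio was above 1. The median log2 ratio of the members was 1.70, 1.68 and 1.72 from the highest to the lowest M9C amount and 1.77 and 1.76 for 80 and 20 pmol L6F, beside 0.07 to 0.10 for all genes. The 5 comparisons share the same rested cells. Gins3, Gins4 and Rpa3 were counted in none of them. These counts end where only a few rested cells, with higher replication levels, are kept as the reference. They fall to 1 in each comparison with the 47 rested cells of 1000 genes or more (5519 CPM). Of 28 members checked one by one, 6 turn below 1 there at 20 pmol M9C, and the other members were not checked. With the 19 rested cells whose hashtag share is 95% or more (3515 CPM) the counts fall to between 1 and 3. The share of all genes higher against these small sets of rested cells is not given. These lower counts thus have no background beside them, and fewer rested cells also widen the intervals.

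**Figure D1:**
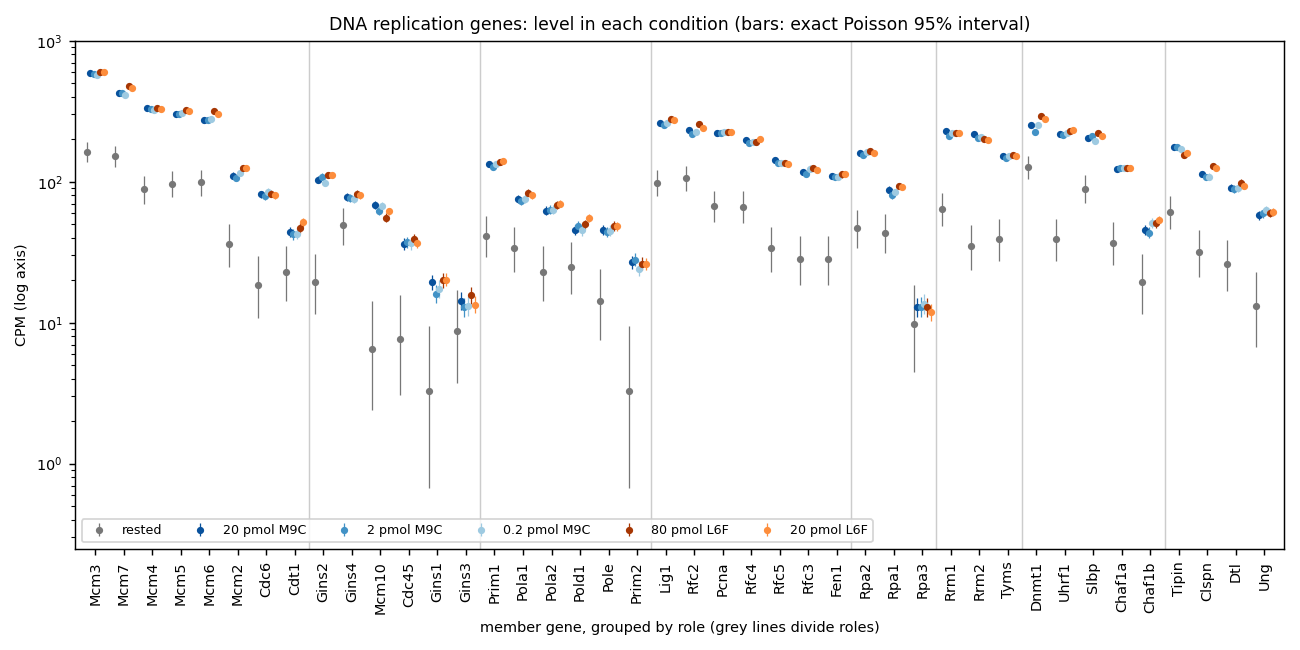
Level of each of the 42 replication genes in the 6 conditions, in CPM on a log axis, with exact Poisson 95% intervals as bars and grey lines between roles. For most genes the 5 stimulated points overlap and sit above the grey rested point, while for Gins3 and Rpa3 the rested interval reaches the stimulated points.

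Licensing genes summed to 676 CPM in rested cells and 2165 CPM at 20 pmol M9C, a ratio of 3.20 (2.96 to 3.48). Mcm3, a subunit of the helicase ring, was at 162 CPM in rested cells, 592, 583 and 574 CPM at 20, 2 and 0.2 pmol M9C, and 603 and 605 CPM at 80 and 20 pmol L6F. All 5 stimulated values were well above the rested one, by 3.65-fold (3.11 to 4.32) at 20 pmol M9C. The other ring subunits had ratios between 2.78 for Mcm6 (99.0 to 276 CPM) and 3.78 for Mcm4 (88.1 to 334 CPM), with Mcm2 at 3.08, Mcm5 at 3.10 and Mcm7 at 2.81, so the 6 subunits of the ring stayed within a narrow band. The ratios of the loaders Cdc6 and Cdt1 lay on either side of that band. Their intervals overlap each other and that of Mcm3. Overlap alone does not show that the ratios are alike, and these genes were not compared with each other directly. Cdc6, the ATPase that loads the ring, was at 18.5 CPM in rested cells, 81.5, 78.9 and 84.7 CPM with falling M9C and 82.0 and 80.1 CPM with falling L6F. Its ratio at 20 pmol M9C was 4.41 (2.74 to 7.59). Cdt1, the partner of Cdc6 whose protein is destroyed once S phase begins, was at 22.9 CPM in rested cells, 44.1, 42.3 and 42.8 CPM with falling M9C and 47.1 and 51.5 CPM with falling L6F. Cdt1 passed 2-fold only with L6F, and its ratio at 20 pmol M9C was 1.93 (1.25 to 3.14).

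Helicase activators held both the largest and some of the smallest ratios of the whole set. Mcm10 was at 6.53 CPM in rested cells, 68.3, 62.3 and 66.8 CPM with falling M9C and 55.7 and 61.6 CPM with falling L6F. That is 10.5-fold at 20 pmol M9C (4.79 to 28.6), an interval that is wide because the rested value rests on 6 UMIs. Gins2 was at 19.6 CPM in rested cells, 104, 109 and 98.5 CPM with falling M9C, and 111 and 112 CPM with falling L6F. Gins4, a subunit of the same 4-part GINS ring, was at 49.0 CPM in rested cells and between 75.8 and 81.9 CPM in all stimulated conditions. The ratios at 20 pmol M9C were 5.29 (3.34 to 8.96) for Gins2 and 1.60 (1.18 to 2.20) for Gins4, intervals that do not meet. Gins1 was at 5.93 (2.01 to 28.9), on 3 rested UMIs, and Gins3 at 1.65 (0.818 to 3.87), so for Gins3 no difference was detectable at this depth. Cdc45, which joins GINS on the helicase, was 4.76-fold higher (2.29 to 11.9).

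Polymerase genes had a summed ratio of 2.77 (2.32 to 3.32) at 20 pmol M9C. Prim1, the catalytic subunit of primase, which lays down the RNA primer, was at 41.4 CPM in rested cells, 133, 127 and 134 CPM with falling M9C and 137 and 140 CPM with falling L6F. Its partner Prim2 was at 3.26 CPM in rested cells, again 3 UMIs, and 26.8, 28.0, 24.2, 26.2 and 26.0 CPM in the stimulated conditions in the same order. The ratio was 3.21 (2.33 to 4.56) for Prim1 and 8.21 (2.78 to 40.0) for Prim2. These intervals overlap, and the pair were not compared with each other directly. Pold1, the catalytic subunit of the lagging strand polymerase delta, was at 25.03 CPM in rested cells, 45.5, 48.2 and 45.3 CPM with falling M9C and 49.9 and 55.1 CPM with falling L6F. Pold1 had the smallest ratio of this role at 20 pmol M9C, 1.82 (1.2004 to 2.89), and passed 2-fold only at 20 pmol L6F. Pole, which encodes the leading strand polymerase, was 3.23-fold higher (1.87 to 6.10). Pola1 and Pola2, subunits of the polymerase that extends the primer, were 2.24-fold (1.57 to 3.31) and 2.73-fold higher (1.77 to 4.43).

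The clamp, its loader and the enzymes that join Okazaki fragments, the short pieces of the lagging strand, were all counted as higher, 7 of 7, with a summed ratio of 2.98 (2.70 to 3.30). Pcna, the sliding clamp itself, was at 67.5 CPM in rested cells and between 220 and 227 CPM in stimulated cells, 3.26-fold higher at 20 pmol M9C (2.54 to 4.27). Of the loader subunits, Rfc5 was at 33.7 CPM in rested cells, 143, 135 and 135 CPM with falling M9C and 135 and 133 CPM with falling L6F. Rfc2 was at 107 CPM in rested cells, 232, 218 and 227 CPM with falling M9C, and 255 and 241 CPM with falling L6F. The ratio of Rfc5, 4.22 (2.97 to 6.24), had an interval above that of Rfc2, 2.17 (1.78 to 2.69), and Rfc3 and Rfc4 were at 4.12 and 2.97. Lig1, the ligase that seals the fragments, was at 97.9 CPM in rested cells, 260, 251 and 262 CPM with falling M9C and 279 and 274 CPM with falling L6F. Fen1, the nuclease that trims the flap before Lig1 acts, was 3.87-fold higher (2.63 to 5.94), and Lig1 2.66-fold (2.15 to 3.31).

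Replication protein A coats single-stranded DNA as a complex of 3 subunits. Rpa2 was at 46.8 CPM in rested cells, 160, 154 and 164 CPM with falling M9C and 164 and 160 CPM with falling L6F, 3.42-fold higher at 20 pmol M9C (2.53 to 4.75). Rpa1 was at 43.5 CPM when rested and between 79.95 and 93.4 CPM under stimulation, near the 2-fold line at 2.02 (1.47 to 2.84). Rpa3 was at 9.79 CPM in rested cells, 12.9, 12.9 and 13.6 CPM with falling M9C and 12.8 and 11.9 CPM with falling L6F. Rpa3 had the smallest ratio of the 42 at 20 pmol M9C, 1.31 (0.675 to 2.92), and a difference was not detectable at this depth.

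Nucleotide supply was the role with the largest summed ratio at 20 pmol M9C, 4.32 (3.63 to 5.19), from 138 CPM in rested cells to 597 CPM. Ribonucleotide reductase, which makes deoxynucleotides, needs a large subunit, Rrm1, and a small subunit, Rrm2. Rrm1 was at 64.2 CPM in rested cells, 227, 212 and 221 CPM with falling M9C and 222 and 221 CPM with falling L6F. Rrm2 was at 34.8 CPM in rested cells, 217, 206 and 208 CPM with falling M9C and 202 and 197 CPM with falling L6F. Both were well above rested cells in every stimulated condition, by 3.54-fold (2.74 to 4.66) for Rrm1 and 6.22-fold (4.40 to 9.12) for Rrm2 at 20 pmol M9C. Tyms, which makes thymidylate, was 3.91-fold higher (2.82 to 5.60).

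Genes that restore chromatin and its methylation behind the fork summed to a ratio of 2.71 (2.41 to 3.06). Uhrf1, which recognises half-methylated DNA, was at 39.2 CPM in rested cells, 218, 215 and 222 CPM with falling M9C and 230 and 231 CPM with falling L6F. Dnmt1, the methyltransferase that Uhrf1 recruits, was at 126 CPM in rested cells, 253, 225 and 253 CPM with falling M9C and 290 and 278 CPM with falling L6F. The ratios differed beyond counting error, 5.56 (4.01 to 7.96) for Uhrf1 and 2.00 (1.67 to 2.43) for Dnmt1, which was already well detected in rested cells. Slbp, which binds histone mRNA, was 2.28-fold higher, and the histone chaperone genes Chaf1a and Chaf1b were 3.33-fold (2.37 to 4.82) and 2.32-fold higher (1.45 to 3.94).

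In the last role, fork protection, origin control and uracil removal, 4 of 4 were higher. Tipin, a fork protection factor, was at 60.9 CPM in rested cells, 176, 176 and 169 CPM with falling M9C and 154 and 160 CPM with falling L6F. Ung, which removes uracil from DNA, was at 13.1 CPM in rested cells, 57.8, 60.0 and 62.8 CPM with falling M9C and 60.1 and 61.0 CPM with falling L6F. Ung was 4.42-fold higher at 20 pmol M9C (2.52 to 8.60) and Tipin 2.89-fold (2.21 to 3.83). Clspn, which passes the stalled-fork signal on, and Dtl, which helps destroy Cdt1, were 3.599-fold and 3.46-fold higher.

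The 15 members with an E2F word had a median log2 ratio of 1.49 at 20 pmol M9C (0.72 to 2.48), and the 19 with a window and no word had 1.74 (0.39 to 3.39). Mcm10 and Rrm2, printed above without a word, lay at the upper end, and Mcm6, with 3 words, at 1.48.

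**Figure D2:**
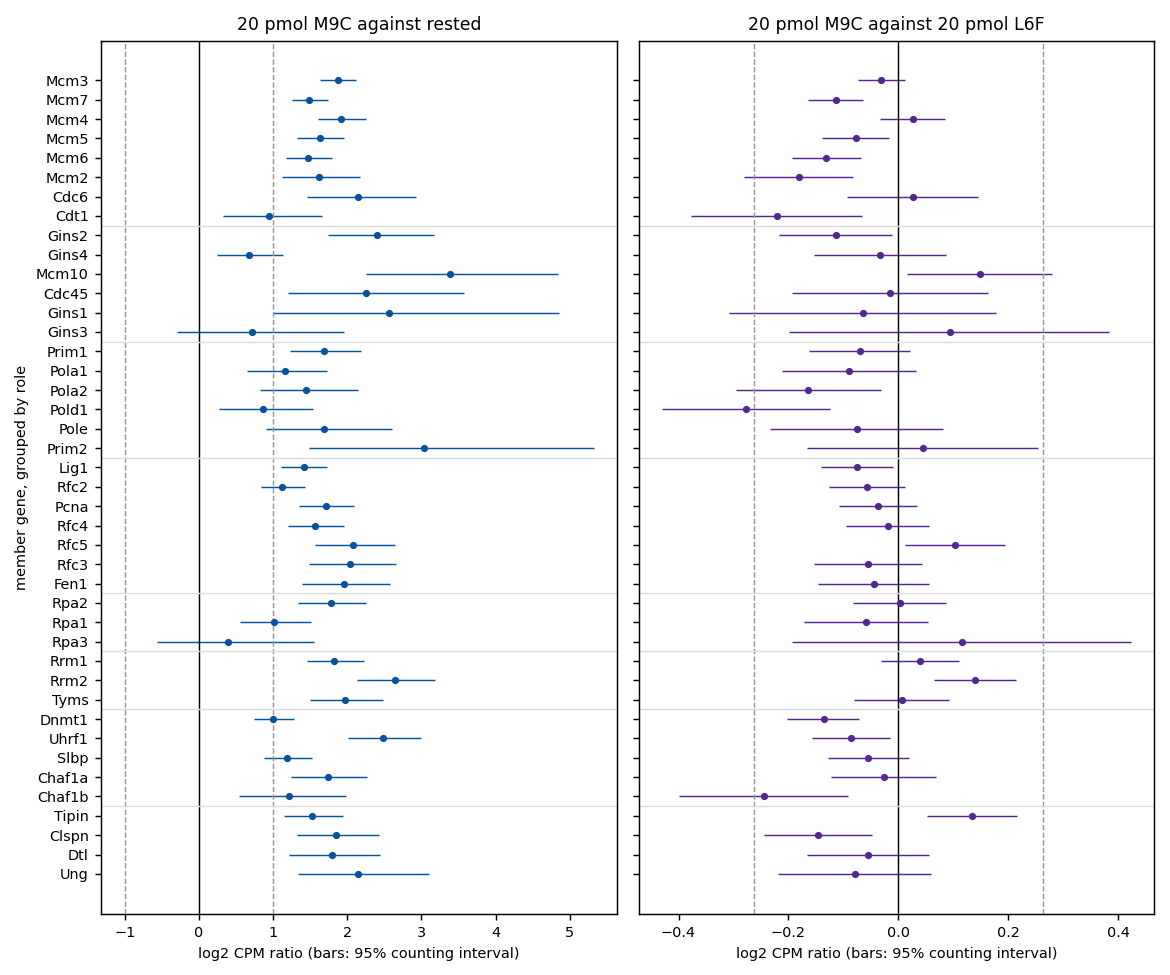
Log2 CPM ratio of each replication gene with its 95% counting interval, at 20 pmol M9C against rested cells (left, dashed lines at 2-fold) and at 20 pmol M9C against 20 pmol L6F (right, dashed lines at 1.2-fold). On the left all 42 points lie above 0, and on the right all but Pold1 lie inside the dashed lines.

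Between amounts of the same peptide, replication genes differed by at most a few percent in sum. With a line drawn at 1.2-fold and an interval excluding 1, 0 of 42 members were higher or lower between 20 and 2 pmol M9C (all genes 2.39% higher, 1.15% lower) and 0 between 2 and 0.2 pmol M9C (2.30% and 2.60%). The count was also 0 between 20 and 0.2 pmol M9C (4.32% and 2.83%) and between 80 and 20 pmol L6F (1.75% and 1.64%). The summed ratio was 1.03 (1.02 to 1.04) for 20 against 2 pmol M9C, 0.985 (0.975 to 0.995) for 2 against 0.2 pmol M9C, 1.01 (1.00 to 1.02) for 20 against 0.2 pmol M9C and 1.01 (1.00 to 1.02) for 80 against 20 pmol L6F. These steps go up and down, and with 1 culture each they cannot be set against the spread between cultures. Dnmt1 was outside its counting error in both M9C steps, at 1.12 (1.07 to 1.18) for 20 against 2 pmol M9C and 0.889 (0.843 to 0.937) for 2 against 0.2 pmol M9C, while its 20 and 0.2 pmol values both round to 253 CPM. Ordered by the interval bound nearest no change, which sets aside imprecise members, Rrm1 at 1.07 (1.02 to 1.13) and Rfc2 at 1.06 (1.01 to 1.12) came next after Dnmt1 for 20 against 2 pmol M9C. On the lower side by the same order stood Slbp, Gins2 and Mcm5, from 0.954 to 0.989, with intervals that include 1. By the ratio alone, Gins1 was highest at 1.21 (0.997 to 1.47) and Pold1 lowest at 0.945 (0.841 to 1.06), and neither interval excludes 1. Slbp and Gins2 stood on the higher side for 2 against 0.2 pmol M9C, at 1.08 (1.02 to 1.14) and 1.103 (1.02 to 1.196), so both were highest at the middle amount. Chaf1b at 0.856 (0.759 to 0.965) and Rfc3 at 0.914 (0.847 to 0.985) were lower there, and Mcm7 at 1.02 had an interval that includes 1.

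Across the whole M9C range, 20 against 0.2 pmol, no member's interval excluded 1. By the same interval order the members on the higher side were Mcm3 at 1.03, Mcm7 at 1.04 and Rrm2 at 1.04, while Gins1 and Prim2 had larger but less precise ratios of 1.11. On the lower side were Chaf1b at 0.893, Ung at 0.920 and Rfc3 at 0.941. Between 80 and 20 pmol L6F, Mcm6 at 1.05 (1.01 to 1.097), Rfc2 at 1.06 (1.01 to 1.11) and Dnmt1 at 1.04 were slightly higher with more peptide. Mcm10, at 55.7 against 61.6 CPM, was lower with more L6F, 0.904 (0.821 to 0.994), and Pold1 at 0.905 and Rfc4 at 0.950 had intervals that reach 1.

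At the one matched amount, 20 pmol, M9C and L6F also gave nearly the same replication level, 6291 against 6496 CPM, a ratio of 0.968 (0.960 to 0.977). At 1.2-fold, 0 members were higher with M9C (8.91% of all genes) and 1 was lower (9.35%): Pold1, at 45.5 against 55.1 CPM, a ratio of 0.826 (0.743 to 0.917). Asking only that the interval exclude 1, 4 members were higher with M9C (21.0% of all genes) and 13 lower (17.6%). The 4 were Mcm10 at 1.11, Rrm2 at 1.102, Tipin at 1.098 and Rfc5 at 1.08. The 13 were Pold1, Chaf1b, Cdt1, Mcm2, Pola2, Clspn, Dnmt1, Mcm6, Mcm7, Gins2, Uhrf1, Mcm5 and Lig1, from 0.826 to 0.949, and they include 4 of the 6 ring subunits. By role, polymerases were at 0.928 (0.894 to 0.963) and licensing genes at 0.954 (0.939 to 0.969), while nucleotide supply was at 1.05 (1.02 to 1.08). Per cell the direction turned: M9C cells carried 1.04 times the member UMIs of L6F cells, since their median depth was 6943 against 6354 UMIs.

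Both L6F values lay above all 3 M9C values for 22 of 42 members (26.2% of all genes) and below them for 4 (31.0% of all genes), with 16 overlapping. Mcm2 was at 106 to 115 CPM with M9C and 125 to 126 CPM with L6F, and Mcm6 at 272 to 279 and 302 to 318 CPM. Clspn was at 108 to 114 CPM with M9C and 126 to 128 CPM with L6F. The 4 members below were Mcm10, Rrm2, Rpa3 and Tipin, and Tipin was at 169 to 176 CPM with M9C and 154 to 160 CPM with L6F. Since the amounts were not the same for both peptides and each value is 1 culture, these orders are descriptions.

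To compare cells at equal depth, each cell was thinned at random to 1000 UMIs, which left out 291 rested cells and 3 to 10 cells per stimulated condition as too shallow. Of 464 rested cells, 114 (24.6%, exact interval 20.7 to 28.7%) then had 3 or more member UMIs. The share was 93.6% (92.3 to 94.6%), 92.6% (91.3 to 93.8%) and 95.4% (94.2 to 96.4%) at 20, 2 and 0.2 pmol M9C, and 94.8% (93.8 to 95.7%) and 94.4% (93.5 to 95.3%) at 80 and 20 pmol L6F. Nearly all stimulated cells were therefore past a level that most rested cells did not reach. Without thinning the shares were 24.4% of rested cells and 99.4 to 100% of stimulated cells. The median thinned cell held 1 member UMI when rested and 6 in each stimulated condition, and 28.7% of rested cells held 0 against 0.0631 to 0.430% of stimulated cells. Mcm3 alone was seen in 15.3% of thinned rested cells and 43.2 to 45.8% of thinned stimulated cells, Rrm2 in 2.80% and 17.3 to 19.6%, and Rpa3 in 0.862% and 1.05 to 1.41%. Free RNA in the droplets can give a cell UMIs of a gene it does not express; its part in the rested share was not tested.

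**Figure D3:**
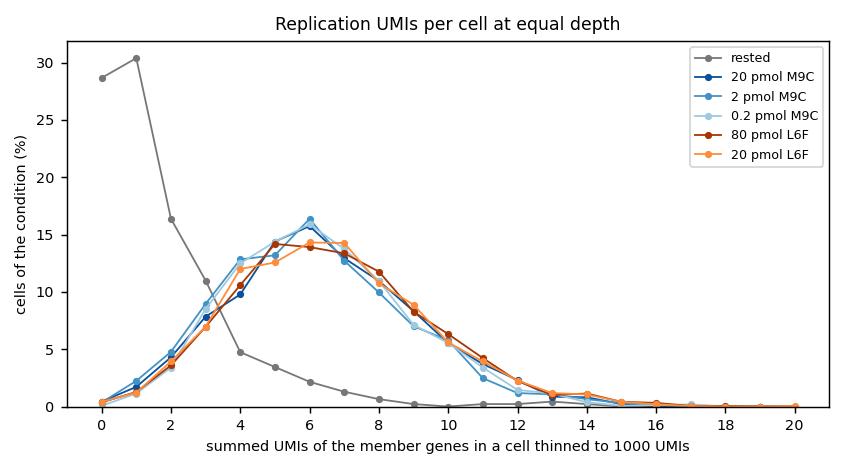
Share of cells of each condition (y, percent) by the summed UMIs of the 42 replication genes in a cell thinned to 1000 UMIs (x). Rested cells pile up at 0 to 2 UMIs with a thin tail, and the 5 stimulated curves peak together near 6 UMIs.

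Within the stimulated conditions the thinned replication counts formed a single hump. The variance of thinned member UMIs over their mean was 1.07 to 1.203 in stimulated cells and 2.42 in rested cells, where random counting alone gives about 1. The same relative spread between cells moves that ratio less at about 6 UMIs per cell than at a greater depth. Rested cells nevertheless reached 2.42 on a mean of 1.75 UMIs. Stimulated cells deep enough to be thinned to 4000 UMIs held a mean of 24.8 to 26.4 member UMIs, 90% of cells lay between 15 to 16 and 36 to 38, and none was at 0. At that depth the variance over mean was 1.56 to 1.68, a spread beyond counting noise, against 3.41 to 4.10 for 25 mitosis genes in the same cells. Replication genes thus varied between stimulated cells, and by this measure less than mitosis genes.

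To see whether members moved together from cell to cell, 21 members ranked the thinned cells and the remaining 21 were then read. In rested cells the remaining members were at 443 CPM in 203 cells with 0 ranking UMIs, 766 CPM in 209 cells with 1 to 2 and 1812 CPM in 48 cells with 3 to 5. In stimulated cells the same reading went from 2562 CPM in 363 cells with 0 ranking UMIs to 3164 CPM in 1544 cells with 6 or more. The stimulated cells lowest on the ranking genes were above those 48 rested cells, while 4 rested cells with 6 or more ranking UMIs were at 2500 CPM. At 0.2 pmol M9C this shallow reading showed no steady rise, with 3073, 2969.6, 2843 and 3082 CPM from 0 to 6 or more ranking UMIs. With cells thinned to 4000 UMIs and split into 4 equal groups by the ranking genes, the remaining members were higher in the highest than in the lowest group of each stimulated condition, at 0.2 pmol M9C from 2517 to 3106 CPM.

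In the pooled stimulated cells at 1000 UMIs, most of the remaining members were higher in the cells with 6 or more ranking UMIs than in those with 0, but Pcna (0.998), Gins3 (0.940) and Prim2 (0.470, on 28 and 14 UMIs) were not. Other replication genes as a list went from 4884 to 5338 CPM, regulators of G1 and S phase from 2380 to 2576 CPM and mitosis genes from 2997 to 2525 CPM. As sums, mitosis genes thus moved against the members, and other replication genes moved with the members by a small amount. Single mitosis genes had ratios on both sides of 1, without intervals, so this split is not set against counting error. Ccnb2 (86 and 13 UMIs), Cdk1, Kif20a, Ckap2, Kif11, Cdc20, Birc5, Bub1b and Top2a were above 1, from 1.56 to 1.04 in that order. The other mitosis genes were below 1, from 0.959 for Mki67 to 0.329 for Ttk (7 and 5 UMIs). Regulators showed no steady rise, with 2380, 2583, 2521 and 2576 CPM from 0 to 6 or more ranking UMIs.

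Rested cells were not uniform in replication genes. The 76 deepest of the 755 cells held 49.2% of rested member UMIs and 21.6% of all rested UMIs, at 4599 CPM against 1309 CPM in the others. In 4 equal groups from shallow to deep, rested cells were at 1313, 1120, 1322 and 3268 CPM, whereas in each stimulated condition the level was lowest in the deepest group. At 20 pmol M9C the 4 groups were at 6759, 6620, 6436 and 5843 CPM. The 47 rested cells with 1000 genes or more carried 43.2% of rested member UMIs, at 5519 CPM, a level nearer that of stimulated cells.

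**Figure D4:**
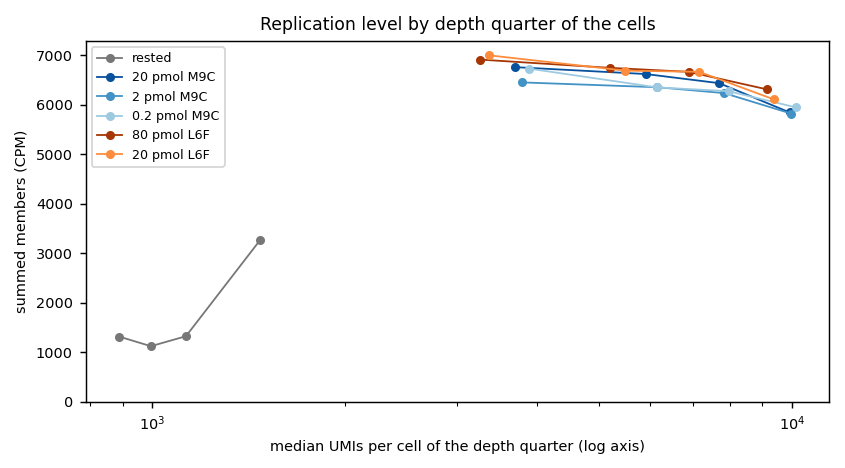
Summed level of the 42 replication genes (y, CPM) in 4 equal groups of cells by depth, placed at the group's median UMIs (x, log axis), for each condition. Rested cells are highest in their deepest group, at 3268 CPM, and each stimulated line is lowest in its deepest group.

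These 47 cells also held RNA of other blood cells. Macrophage or monocyte markers, 5 genes, summed to 936 CPM in them and 2.59 CPM in the other 708 rested cells, and erythroid markers, 6 genes, to 1005 and 0 CPM. CD8 T cell markers were at 1858 CPM in the 47 and 3830 CPM in the 708, and mitosis genes at 3647 and 211 CPM. Over all rested cells macrophage markers were at 150 CPM, with Adgre1 and Itgam at 0, and erythroid markers at 159 CPM, with Alas2 at 0; the stimulated ranges were 2.67 to 26.3 and 2.68 to 41.7 CPM. Only 9 rested cells carried 3 or more UMIs of such markers, and they held 11.6% of rested member UMIs; without them rested cells stood at 1879 CPM. Against the 708 shallow rested cells alone, 38 or 39 members were higher in every stimulated condition and the summed ratio was 4.50 to 4.82. The share of all genes higher against these 708 cells was not counted, so these member counts have no background beside them. How far other cells, or cells carried over from another culture, set the rested level was not tested.

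Genes outside the set were read from lists of other replication genes, mitosis genes and regulators of G1 and S phase. Of 50 other replication genes 49 were measured at 20 pmol M9C against rested cells, and 28 were higher and 3 lower, with a median log2 ratio of 1.26. Tk1, thymidine kinase, was at 104 against 14.2 CPM (7.33-fold, 4.27 to 13.8), and Recql4, a helicase that helps start replication, was at 16.4 CPM against no UMI in rested cells, at least 5.03-fold higher when rested cells are set at a floor of 3 UMIs, while the exact 95% interval of the ratio begins at 4.05. On the lower side were Samhd1, which breaks down deoxynucleotides, at 120 against 307 CPM (0.390), and Rrm2b, the small reductase subunit used outside S phase, at 9.45 against 20.7 CPM (0.457). Rrm1, Rrm2, Tyms and Tk1 thus stood on the higher side and Samhd1 and Rrm2b on the lower side. Of 25 mitosis genes 24 were higher (median 1.78), with Kif20a at 6.22 and Ccnb1 at 5.59. Of 25 measured regulators of the 29 listed, 10 were higher and 5 lower (median 0.43). The lower share of the regulators was near that of all genes. E2f3 was at 6.22 and Ccna2, the S phase cyclin, at 5.53, while the cycle inhibitor Cdkn1b was at 18.5 against 162 CPM (0.114) and Rbl2, a pocket protein that holds E2F targets down, at 0.370.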

How the data were processed

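Transcriptome and hashtag libraries of 1 lane of pooled mouse CD8+ T cells were measured. The deposited values are UMI counts that the authors made on GRCm38. The submitters' processing notes name bcl2fastq and Cell Ranger 6.0.1. For the annotation and the calling of cells, the choice is not given in the sources used here. Of 13439 barcodes, 11671 were assigned where the top hashtag had at least 20 counts and 80% of hashtag counts. The others, which include barcodes of several hashtags, were left out; doublets within a condition cannot be seen this way, and no other doublet caller was run. Cells needed 500 genes and at most 10% mitochondrial UMIs. Counts were summed per condition with Python 3.11.15, numpy 2.4.6, scipy 1.17.1 and pandas 2.3.3, with exact Poisson intervals for CPM and exact Clopper-Pearson 95% intervals for ratios and shares; no count is corrected for PCR beyond its UMI. As the design holds 1 culture per condition, no test was run. There were 10 comparisons. Named members are, per role, the gene with the highest CPM and those with the largest and smallest ratio at 20 pmol M9C against rested cells, then the 3 highest and 3 lowest of each other comparison by the interval bound nearest no change; further members are named to complete a complex, after their values were seen. From the other lists, the genes with the largest ratios either way are named. The members and lists were chosen with earlier results of these data known. The scripts were tested on simulated data. Alternatives were hashtag rules (Seurat 5.3.0 HTODemux in R 4.3.3, or a share of 95%), gene minimums, filters on low values and on deep or marked cells, UMIs per cell and thinning depths. Promoters come from RefSeq.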

Additional observations from a re-analysis of the deposited data

Results flagged for a closer look

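Barcodes that no hashtag placed in a condition entered no comparison above, and they carried a clear replication signal. The 1565 of them that passed the filters on genes and mitochondrial UMIs had a median of 9542 UMIs, deeper than the cells of any condition. Their summed replication genes stood at 6154.62 CPM (95% counting interval 6117 to 6193), against 2021 CPM in rested cells. That value lies within the range of the stimulated conditions, 6132 to 6574 CPM. Barcodes of several hashtags are among them, so the value can mix cells of different cultures. The 828 rested barcodes under the minimum of 500 genes stood at 1350.0 CPM (1257 to 1448), below the rested cells used.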

How the results depend on the processing

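No paired analysis was possible because each condition was 1 culture. Counts of members at least 2-fold higher than in rested cells moved by under 1.5 times under HTODemux calls (32 to 35), thinning to 1000 UMIs (36 to 40) or a minimum of 50 CPM (30 to 35 of 33 to 36 measured). They did not hold where few rested cells with a higher replication level were left. With a hashtag share of 95% or more, 19 rested cells at 3515 CPM remained beside 6285 CPM at 20 pmol M9C, and the counts were 1 for each M9C amount, 3 for 80 pmol L6F and 2 for 20 pmol L6F. With 1000 genes or more, 47 rested cells at 5519 CPM remained beside 6294 CPM, and each count was 1. The share of all genes higher is not given under any of these changed settings, so these member counts have no background beside them. Under the minimum of 1000 genes, 28 members were checked one by one at 20 pmol M9C. Their log2 ratio turned below 0 for Cdc6 (-0.13), Chaf1b (-0.60), Dnmt1 (-0.16), Lig1 (-0.51), Rfc2 (-0.0115) and Tipin (-0.0794). As UMIs per cell, the summed log2 ratio was 0.0109 for 20 against 2 pmol M9C, -0.0474 for 2 against 0.2, -0.0364 for 20 against 0.2, -0.0323 for 80 against 20 pmol L6F and 0.05 for M9C against L6F at 20 pmol. After thinning it was 0.0677 for 20 against 2 pmol M9C and -0.0467 for 2 against 0.2. Shares of cells depend on the line drawn. For rested cells, then 20, 2 and 0.2 pmol M9C, then 80 and 20 pmol L6F, they were 40.9, 97.9, 97.4, 98.8, 98.4 and 98.4% at 2 UMIs or more. In the same order they were 8.84, 75.9, 70.8, 74.4, 77.2 and 75.5% at 5 UMIs or more, and 11.5, 81.6, 77.9, 80.9, 81.6 and 82.9% at 3 or more after thinning to 700 UMIs. The other 90 of 125 settings of summed values, counts and shares moved by less. Depth limits members with few rested UMIs, such as Gins1, Prim2, Mcm10 and Rpa3. Thinning to 4000 UMIs, groups of cells by depth and the rested cells under 1000 genes were chosen after seeing the data.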
